A study of Homo sapiens with 6 samples.

Results

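Plasminogen activators and matrix metalloproteases are secreted or cell-surface enzymes that digest the matrix around a cell. The group described here holds 9 genes chosen by name: the plasminogen activators PLAU and PLAT, the urokinase receptor gene PLAUR, the serpin inhibitor genes SERPINE2 and SERPINB2, and the matrix metalloprotease genes MMP1, MMP9, MMP10 and MMP14. They were taken as every row of the authors' deposited table with one of these gene names, which gave 41 of 82428 coding sequences and 9 of 20660 gene names. The table compares FaDu cells given the compound BB608, known only by this code name, with FaDu cells given the vehicle DMSO, each group with 3 biological replicates per the series' design text. FaDu is an established human line derived from a hypopharyngeal squamous carcinoma, and the labels also call it HNSCC, for head and neck squamous cell carcinoma. Neither dose nor treatment time is given in the labels, which name no further agent or genetic change in either group. The deposited column names call each group a subset, without saying of what.

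Urokinase, the product of PLAU, binds its receptor on the cell surface and cleaves plasminogen to plasmin, a broad protease that degrades fibrin and matrix proteins and can activate latent metalloproteases. Serpins such as the products of SERPINE2 and SERPINB2 block the activators. Metalloproteases are made as inactive precursors, so mRNA levels alone do not give their activity, and tissue inhibitors of metalloproteases hold the active enzymes in check. In squamous carcinomas these genes are known for their part in invasion. Several of them are textbook targets of AP-1, the dimer of FOS and JUN family proteins.

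Upstream windows are shown first because the AP-1 subunit genes FOS and JUN were among the genes that fell with BB608. Of 14 tested genes whose products could drive AP-1 or ETS motifs, 3 fell and 11 were not called. Whether these falls bear on the genes described here was not tested, and 0 of their coding sequences were called. RefSeq windows of GRCh38.p14, each covering the 250 bases before an annotated start, were matched by symbol for 6 genes (PLAU, PLAUR, SERPINE2, SERPINB2, MMP10 and MMP14), in 8 windows. PLAT, MMP1 and MMP9 had no window and were not searched, so the counts below say nothing about them. The AP-1 motif TGAGTCA, searched on both strands, was in 1 of the 8 windows, that of PLAUR, and in 4.2% of all 35116 windows. The looser motif TGANTCA, which includes the first, was in 3 windows, those of PLAUR, MMP10 and SERPINB2, and in 6.57% of all windows. TATAAA was in 2 windows (10.7% of all) and the ETS motif AGGAAG in 3 (28.7% of all), again on both strands. MMP10 and SERPINB2 are printed as the pair whose windows hold both TGAATCA and TATAAA, in capitals, while their levels differed widely. Their windows are chr11:102780629-102780878 on the minus strand and chr18:63887455-63887704 on the plus strand of GRCh38.p14.
MMP10: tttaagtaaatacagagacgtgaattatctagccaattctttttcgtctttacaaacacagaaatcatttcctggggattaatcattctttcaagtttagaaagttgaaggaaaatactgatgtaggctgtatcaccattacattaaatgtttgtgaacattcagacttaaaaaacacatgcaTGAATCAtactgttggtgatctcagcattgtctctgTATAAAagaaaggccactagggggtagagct
SERPINB2: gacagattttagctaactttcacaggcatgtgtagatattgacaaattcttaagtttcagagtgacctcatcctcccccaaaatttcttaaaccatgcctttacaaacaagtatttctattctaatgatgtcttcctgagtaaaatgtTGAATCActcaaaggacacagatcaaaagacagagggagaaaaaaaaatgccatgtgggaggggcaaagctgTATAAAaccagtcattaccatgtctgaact
For PLAUR and PLAU, 30 bases around a motif are enough to show it, TGAGTCA in PLAUR (chr19:43670337-43670366, minus strand) and AGGAAG in PLAU (chr10:73910900-73910929, plus strand), in capitals.
PLAUR: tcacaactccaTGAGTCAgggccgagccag
PLAU: aggtgcatgggAGGAAGcacggagaattta
In each gene's direction, TGAATCA began 67 bases before the start in MMP10 and 102 bases before it in SERPINB2, and TGAGTCA began 186 bases before it in PLAUR. These matches are letters in a window and no measure of binding.

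By the authors' test no change was called in the 7 tested genes, and SERPINB2 and MMP9 had no tested sequence. Of the 41 coding sequences 17 were tested, from 7 genes, and by the Cuffdiff q of the authors' deposited table (called where under 0.05) 0 were called, against 0.354% of all 34474 tested coding sequences, 0.212% lower and 0.142% higher in BB608. Counted by gene, 0 of 7 were called against 1.06% of 11429 genes with a tested coding sequence, 0.63% lower and 0.429% higher. At a background this low, 7 genes could hold no call without standing apart from the rest. By unadjusted Cuffdiff p in the authors' deposited table, 1 of the 17 sequences (5.88%), in PLAU, was under 0.05, against 3.31% of all tested ones. A q recomputed from normal p-values gave 0 called members as well. The other 24 sequences, among them all 4 of SERPINB2 and the only 1 of MMP9, were not tested by the authors.

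Each value is the authors' FPKM, which scales reads by transcript length and library size, pooled over a group's libraries. A gene sum adds the FPKM of all coding sequences of a gene, and no error could be given for a sum. The spread between libraries is therefore not shown for any level. For a tested coding sequence, an implied SE was derived from the authors' statistic and p, as an approximation of the error their model estimated.

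In both groups PLAU was by far the most abundant of the 9. Its gene sum was 209 FPKM in BB608 and 233 FPKM in DMSO, which is 63.9% of the FPKM of all 9 genes in BB608 and 65.2% in DMSO. MMP1 came next at 55.4 FPKM in BB608 and 54.9 FPKM in DMSO, then MMP10 at 29.2 FPKM in BB608 and 29.5 FPKM in DMSO. MMP14 followed at 19.7 FPKM in BB608 and 19.8 FPKM in DMSO. These 4 genes lay above the median of 10859 expressed genes, which was 11.9 FPKM in BB608 and 11.6 FPKM in DMSO. An expressed gene here had a tested coding sequence and a gene sum that reached 1 FPKM in BB608 or DMSO.

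The remaining genes were low. PLAT had 6.48 FPKM in BB608 and 9.52 FPKM in DMSO, SERPINE2 had 3.78 FPKM in BB608 and 5.52 FPKM in DMSO, and PLAUR had 3.02 FPKM in BB608 and 4.58 FPKM in DMSO. MMP9 was near 0 in both groups, at 0.123 FPKM in BB608 and 0.152 FPKM in DMSO. SERPINB2 was listed at 0.000188 FPKM in BB608 and 0.582 FPKM in DMSO, summed over 4 untested sequences, and no fold is given for it. The order of the 7 higher genes was the same in both groups, but without values per library neighbours such as SERPINE2 and PLAUR cannot be said to differ.

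**Figure D1:**
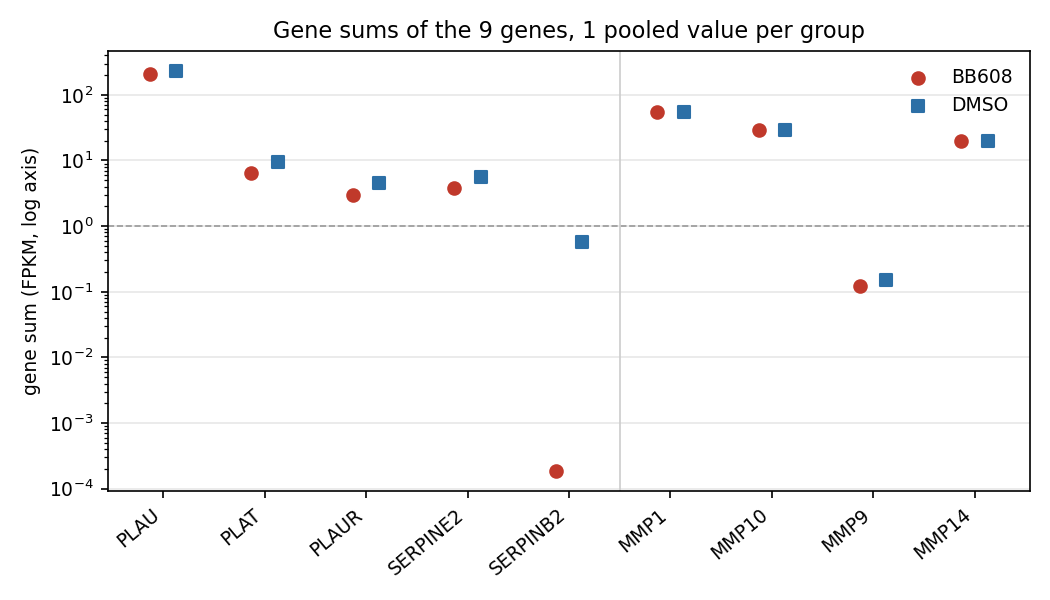
Gene sum in FPKM (log axis) of each of the 9 genes, 1 pooled value for BB608 (circles) and 1 for DMSO (squares), with no error bars since no values per library were used. The grey vertical line parts the plasminogen genes from the metalloproteases, the dashed line marks 1 FPKM, and MMP9 and SERPINB2 lie under it in both groups.

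PLAU encodes urokinase, the secreted activator that starts plasmin formation at the cell surface. Its locus in the authors' table is chr10:75668934-75682535 of hg19. The most abundant coding sequence had 178 FPKM in BB608 and 210 FPKM in DMSO, a log2 fold of -0.24 (implied SE 0.11) in the authors' deposited table. The Cuffdiff p was 0.022 unadjusted and the q 0.997, so this sequence did not pass. Its 95% interval from the implied SE ran from -0.45 to -0.03 on the log2 scale.

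A second PLAU coding sequence was on the other side of 0, at 31 FPKM in BB608 and 23.7 FPKM in DMSO, with a log2 fold of 0.39 (implied SE 0.61) in the authors' deposited table. It made up 14.9% of the PLAU gene sum in BB608 and 10.2% in DMSO. The third sequence was under 0.001 FPKM in both groups. Summed over all 3, the PLAU log2 ratio was -0.16, a smaller difference than that of the most abundant sequence alone. C10orf55, which shares the locus and was named for that reason after its values were seen, had 1.51 FPKM in BB608 and 1.2 FPKM in DMSO. It is known as an antisense neighbour of PLAU, and the sources used here do not say whether the authors' counting used strand.

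PLAT encodes tissue-type plasminogen activator, best known for dissolving clots in blood. All 4 of its tested coding sequences were lower in BB608, with log2 folds from -0.89 to -0.36 in the authors' deposited table. The most abundant had 2.13 FPKM in BB608 and 3.96 FPKM in DMSO (log2 fold -0.89, implied SE 0.76, Cuffdiff p 0.221, q 0.997). The best measured of the 4 had 1.65 FPKM in BB608 and 2.11 FPKM in DMSO, with -0.36 (implied SE 0.36) and an interval from -1.06 to 0.35. These 4 share the reads of a single gene and are not 4 separate measurements. The gene sum had a log2 ratio of -0.56.

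PLAUR encodes the receptor that holds urokinase at the cell surface. It had 12 coding sequences, more than any other gene of the group, and 4 of them were tested. Of the 4, 3 were lower in BB608, with log2 folds from -1.47 to -0.77 in the authors' deposited table, and 1 was higher, with 0.24. By the mean of both groups, the most abundant tested sequence had 0.428 FPKM in BB608 and 1.15 FPKM in DMSO (log2 fold -1.43, implied SE 1.14, Cuffdiff p 0.245, q 0.997), and its interval ran from -3.67 to 0.80. The sequence with 0.24 was the highest tested one in BB608, at 0.751 FPKM, against 0.636 FPKM in DMSO. The PLAUR gene sum had a log2 ratio of -0.60, and the sum over the 4 tested sequences -0.85, with the locus at chr19:44150203-44174699 of hg19.

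SERPINE2 encodes protease nexin, a serpin that inhibits urokinase, plasmin and thrombin. Its 3 tested coding sequences were all lower in BB608. The most abundant by the mean of both groups had 2.07 FPKM in BB608 and 2.36 FPKM in DMSO, with a log2 fold of -0.19 (implied SE 0.49) in the authors' deposited table. Another had 1.61 FPKM in BB608 and 2.43 FPKM in DMSO, with -0.60 (implied SE 0.89). The least abundant, at 0.109 FPKM in BB608 and 0.73 FPKM in DMSO, had -2.74 (implied SE 1.52), and the SE read from its own p was larger, at 2.45. The gene sum had a log2 ratio of -0.54, against -0.19 for the most abundant sequence, and rests in part on the least abundant, which made up 2.89% of the sum in BB608 and 13.2% in DMSO.

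SERPINB2, an inhibitor of urokinase made by stressed and differentiating keratinocytes among other cells, had no coding sequence at 0.3 FPKM or more in either group. In BB608 2 of its 4 sequences were listed at 0 and the others at 0.000149 and 3.82e-05 FPKM. In DMSO 3 of the 4 had 0.136, 0.163 and 0.283 FPKM. No sequence was tested, and depth is unknown, so whether SERPINB2 mRNA differed was not detectable here. The neighbouring SERPINB10, listed under the same locus, was also near 0, at 0.083 FPKM in BB608 and 0.0796 FPKM in DMSO.

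**Figure D2:**
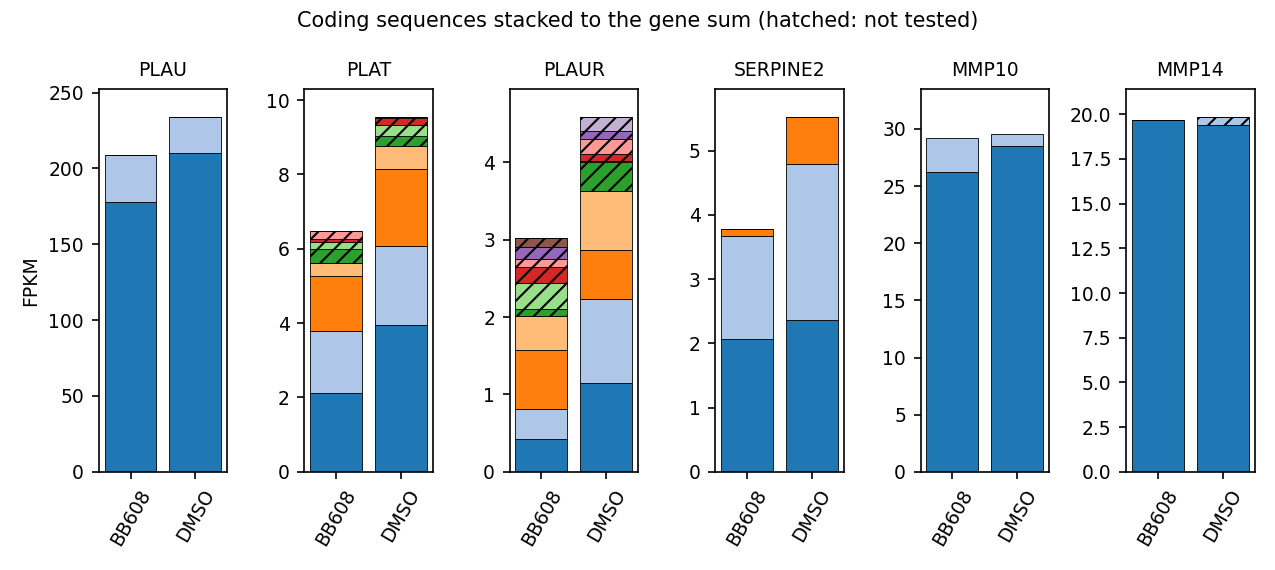
FPKM of each coding sequence stacked to the gene sum, BB608 left and DMSO right, for the 6 genes with more than 1 coding sequence and a tested one; each panel has its own axis from 0, each colour is 1 sequence within a gene, and hatched parts were not tested. PLAU, MMP10 and MMP14 rest mainly on 1 sequence, while PLAT and PLAUR are spread over many.

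The metalloproteases stood close to their DMSO level. MMP1 encodes interstitial collagenase, which cleaves fibrillar collagen, and its only coding sequence had 55.4 FPKM in BB608 and 54.9 FPKM in DMSO. Its log2 fold was 0.01 (implied SE 0.13, Cuffdiff p 0.924, q 0.997) in the authors' deposited table, with an interval from -0.24 to 0.27. That interval leaves out a change of 1.5 times in either direction, which is 0.58 on the log2 scale. After scaling by the median ratio or quantile normalization the value was -0.02 under both, so no direction can be given for MMP1.

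MMP10 encodes a stromelysin, a protease of basement membrane proteins that also activates other metalloproteases. Its main coding sequence had 26.2 FPKM in BB608 and 28.5 FPKM in DMSO (log2 fold -0.12, implied SE 0.19, Cuffdiff p 0.533, q 0.997), with an interval from -0.50 to 0.26. A minor sequence had 2.97 FPKM in BB608 and 1.03 FPKM in DMSO, with 1.53 (implied SE 1.93) in the authors' deposited table. Summed, MMP10 had a log2 ratio of -0.02. MMP10, MMP1 and MMP3 carry the same locus in that table, chr11:102617698-102714534 of hg19, where the table gives MMP10 and MMP1 separate gene identifiers.

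MMP14 encodes a membrane-anchored metalloprotease that cleaves collagen at the cell surface and activates the gelatinase precursor encoded by MMP2. Its tested coding sequence had 19.7 FPKM in BB608 and 19.4 FPKM in DMSO, a log2 fold of 0.02 (implied SE 0.11, Cuffdiff p 0.821, q 0.997) in the authors' deposited table. The interval, -0.19 to 0.23, also leaves out a change of 1.5 times. An untested MMP14 sequence was listed at 3.05e-09 FPKM in BB608 and 0.423 FPKM in DMSO, and with it the gene sum had -0.01, on the other side of 0. MMP9, which encodes a gelatinase often studied in invasive carcinoma, was not tested.

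**Figure D3:**
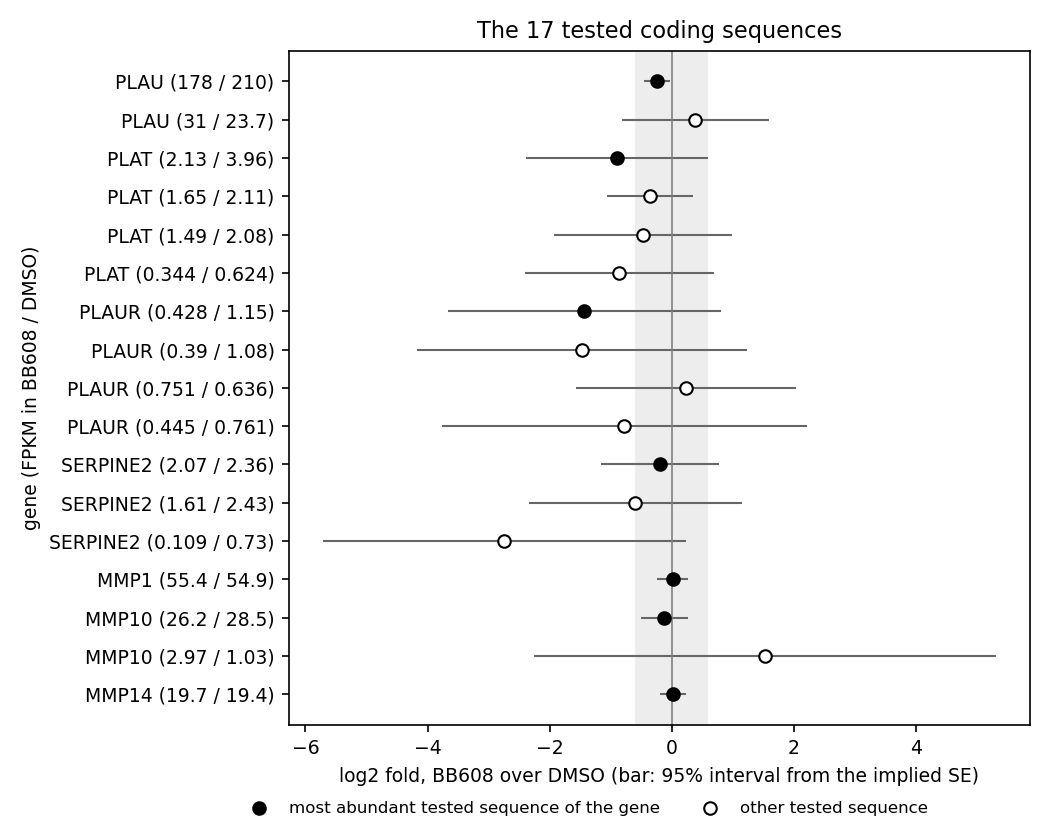
Log2 fold of BB608 over DMSO for the 17 tested coding sequences, each row labelled with the gene and its FPKM in BB608 and DMSO; points are the authors' folds, filled for the most abundant tested sequence of a gene, bars are 95% intervals from the implied SE, and the grey band spans a change of 1.5 times. All intervals cross 0 except that of the main PLAU sequence, and among filled points the bars of MMP1, MMP10, MMP14 and PLAU are shorter than those of PLAT, PLAUR and SERPINE2, while the minor MMP10 sequence has the longest bar of all 17.

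Among gene sums, 6 of the 7 tested genes were lower in BB608 and 1, MMP1, was higher, though MMP1 turned lower under median scaling or quantile normalization and MMP14 higher over tested sequences alone. Their median log2 ratio was -0.16. Over all 10859 expressed genes the median was 0.03, and 42.4% were lower in BB608. Of the 7, 3 (MMP1, MMP10 and MMP14) lay within 0.05 of 0 on the log2 scale. PLAT, PLAUR and SERPINE2 lay between -0.60 and -0.54, below the fifth percentile of expressed genes, which was -0.49. These 3 are the lowest of the 7 in level. Among 2946 expressed genes with a mean of 3 to 10 FPKM, a range chosen after the values were seen, 5.87% had a log2 ratio of -0.5 or lower. The fifth percentile in that range was -0.5359, and PLAT at -0.5553, PLAUR at -0.6011 and SERPINE2 at -0.5445 lay below it as well. No test was made on these sums, and the intervals of the most abundant sequences of PLAT, PLAUR and SERPINE2 include 0.

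**Figure D4:**
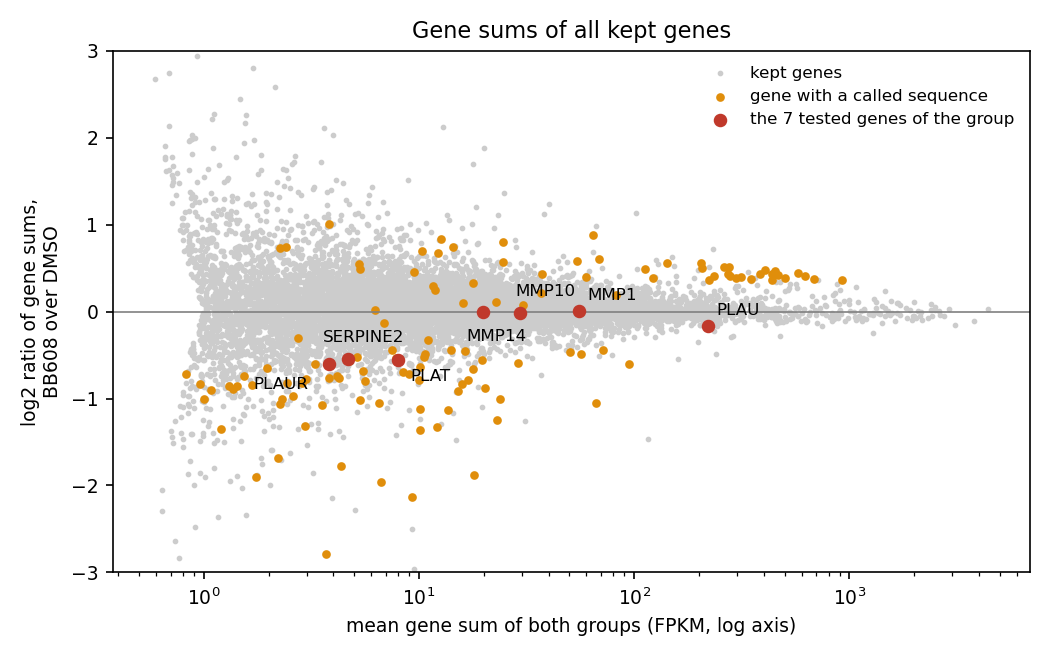
Log2 ratio of gene sums, BB608 over DMSO, against the mean gene sum of both groups in FPKM (log axis), for expressed genes within 3 log2 of 0; orange points have a coding sequence with q under 0.05 and red points are the 7 tested genes of the group. MMP1, MMP10, MMP14 and PLAU lie near 0, and PLAT, PLAUR and SERPINE2 lie lower and at lower levels, where the scatter of all genes is somewhat wider.

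The other genes of the plasminogen system, 14 by a list chosen with earlier results of these data known, had 8 with a tested coding sequence and 0 called. Of them 1, SERPINI1, had a Cuffdiff p under 0.05 in the authors' deposited table. The 3 most abundant bind plasminogen at cell surfaces or help to do so. ENO1 had a gene sum of 1289 FPKM in BB608 and 1300 FPKM in DMSO, ANXA2 796 FPKM in BB608 and 831 FPKM in DMSO, and S100A10, the partner of annexin in that role, 743 FPKM in BB608 and 752 FPKM in DMSO. The list's median log2 ratio was -0.04 over 8 expressed genes.

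The plasminogen receptor gene PLGRKT was named after its values were seen. It had 7.61 FPKM in BB608 and 0.044 FPKM in DMSO for its only coding sequence, and in the authors' deposited table it was not called (Cuffdiff p 0.284, q 0.997). PLG, which encodes plasminogen itself, was listed at 0 in both groups.

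Of 18 other matrix metalloproteases found, 8 were tested and 0 called by Cuffdiff's q. MMP13, a collagenase, was as abundant as MMP1 in gene sum, at 55.4 FPKM in BB608 and 60.6 FPKM in DMSO, a log2 ratio of -0.13. MMP3, a stromelysin beside MMP10, had 4.51 FPKM in BB608 and 6.02 FPKM in DMSO. MMP7, a small metalloprotease of epithelia, had 1.36 FPKM in BB608 and 2.11 FPKM in DMSO, a log2 fold of -0.63 (implied SE 0.24, Cuffdiff p 0.012, q 0.955) in the authors' deposited table. It was the only gene of this list with a p under 0.05.

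The further metalloproteases at 1 FPKM or more were MMP2, MMP15, MMP16, MMP17 and MMP28, none of them past 3.35 FPKM. The gelatinase gene MMP2 had 2.59 FPKM in BB608 and 2.42 FPKM in DMSO. MMP15, a membrane-anchored relative of MMP14, had 3.35 FPKM in BB608 and 3.25 FPKM in DMSO, and MMP28 had 1.21 FPKM in BB608 and 1.66 FPKM in DMSO. MMP16 had 1.02 FPKM in BB608 and 0.302 FPKM in DMSO, and MMP17 had 1.84 FPKM in BB608 and 0.827 FPKM in DMSO. The only tested MMP17 sequence had 0.65 FPKM in BB608 and 0.644 FPKM in DMSO (log2 fold 0.01, Cuffdiff p 0.955). The only tested MMP16 sequence had 0.674 FPKM in BB608 and 4.83e-42 FPKM in DMSO (Cuffdiff p 0.204). No fold is given for a value that small. The list's median log2 ratio was -0.04, and the 8 genes split evenly, with 4 lower and 4 higher in BB608.

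Of 8 tested metalloprotease inhibitors and activators 1 fell and 7 were not called. Over all genes with a tested coding sequence, 0.63% were called lower. The gene that fell was TIMP3, a matrix-bound inhibitor of metalloproteases, at 0.444 FPKM in BB608 and 0.968 FPKM in DMSO, a log2 fold of -1.13 (implied SE 0.21, Cuffdiff q 0.0154) in the authors' deposited table. TIMP1, the abundant secreted inhibitor, had a gene sum of 103 FPKM in BB608 and 111 FPKM in DMSO. BSG, a surface glycoprotein known to induce metalloproteases, had 119 FPKM in BB608 and 98.4 FPKM in DMSO, and the proprotein convertase gene PCSK7 had 21.9 FPKM in BB608 and 22.3 FPKM in DMSO. The list's median log2 ratio was 0.05.

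Of 8 tested ADAM and ADAMTS genes 1 fell, against 0.63% of all genes with a tested coding sequence called lower. That gene was ADAMTS15, a secreted protease that cleaves proteoglycans. It had 0.307 FPKM in BB608 and 0.603 FPKM in DMSO, a log2 fold of -0.97 (implied SE 0.19, Cuffdiff q 0.0154) in the authors' deposited table. TIMP3 and ADAMTS15 each have 1 coding sequence and stay under 1 FPKM, so neither enters the list medians. The sheddase genes ADAM10, ADAM9 and ADAM15 had gene sums of 63.9, 17.8 and 26.3 FPKM in BB608 and of 65.1, 18.4 and 22.3 FPKM in DMSO. None of the 5 tested cell-surface serine proteases and their inhibitors was called by Cuffdiff's q. Their list held 1 gene with an unadjusted p under 0.05. Its most abundant genes were SPINT2, SPINT1 and ST14, which encodes matriptase, with log2 ratios of 0.02, 0.04 and 0.07.

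Of the genes whose products could drive AP-1 or ETS motifs, 3 of 14 tested fell, namely FOS, JUN and ATF3, where 0.63% of all genes with a tested coding sequence were called lower. JUN had 23 FPKM in BB608 and 34.6 FPKM in DMSO for its only coding sequence, a log2 fold of -0.59 (implied SE 0.10, Cuffdiff q 0.0154) in the authors' deposited table. FOSL1, the FOS family gene with the highest gene sum, had 121 FPKM in BB608 and 120 FPKM in DMSO and was not called. The gene sum of FOS was 74.8 FPKM in BB608 and 114 FPKM in DMSO, and that of ATF3 was 3.45 FPKM in BB608 and 15.1 FPKM in DMSO. Of 8 tested FOS sequences 1 was called, at 15.5 FPKM in BB608 and 36.6 FPKM in DMSO. Its log2 fold was -1.24 (Cuffdiff q 0.0154) in the authors' deposited table. Of 4 tested ATF3 sequences 1 was called, at 0.381 FPKM in BB608 and 6.51 FPKM in DMSO. Its log2 fold was -4.09 (Cuffdiff q 0.0154) in the same table. ELF3, an epithelial ETS factor, had 54.8 FPKM in BB608 and 59.6 FPKM in DMSO. This list was made with earlier results of these data known, among them the falls of FOS and ATF3. Its calls, that of JUN included, are no independent support.

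Across the 8 lists without the AP-1 and ETS factors, 2 of 61 tested genes fell and 0 rose. That is 3.28%, beside 0.63% of all genes with a tested coding sequence called lower. Both, TIMP3 and ADAMTS15, lie under 1 FPKM, and at 1 FPKM or more these 8 lists held 0 called genes by Cuffdiff's q. With the AP-1 and ETS factors included, 5 of 75 tested genes fell (6.67%) and 0 rose. All these lists were chosen with earlier results of these data known, so neither share is independent support.

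**Figure D5:**
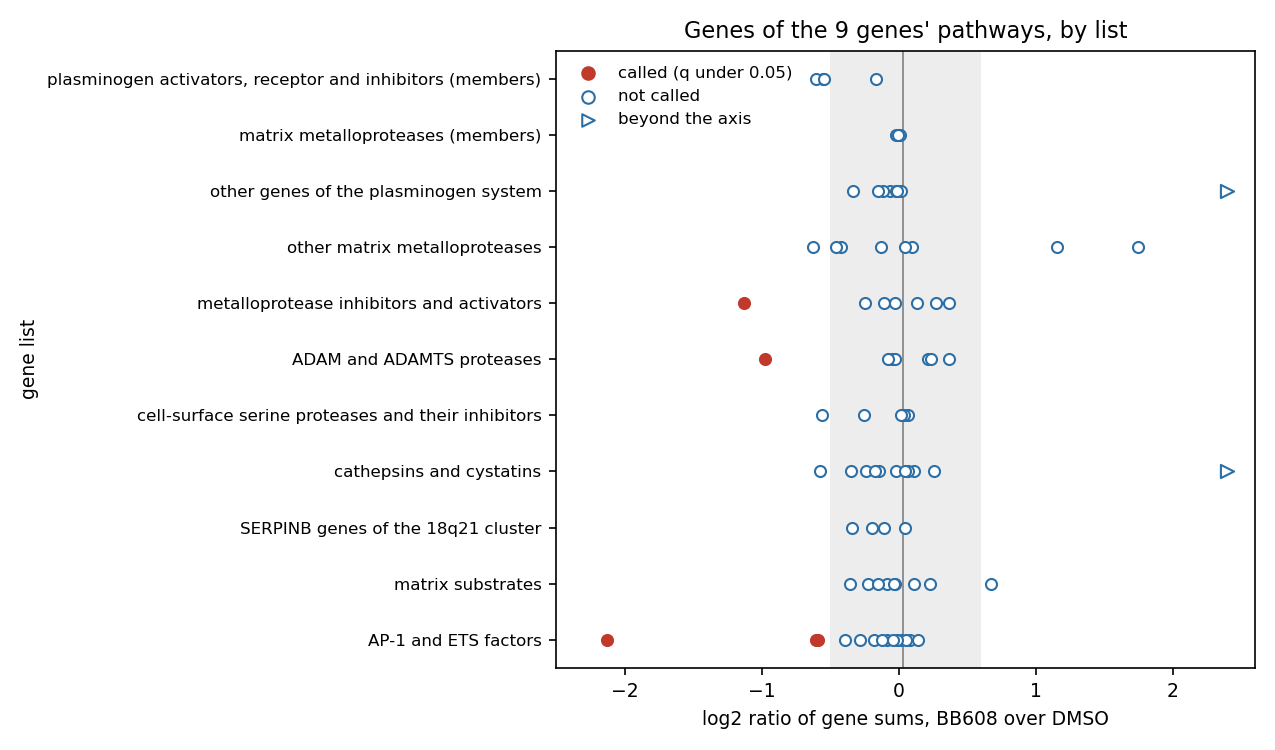
Log2 ratio of gene sums, BB608 over DMSO, for expressed genes of the 9 genes' own lists and of the 9 further lists, and for TIMP3 and ADAMTS15, which lie under 1 FPKM; filled points have a coding sequence with q under 0.05, triangles are PLGRKT and CSTB beyond the axis, the grey band spans percentiles 5 to 95 of all expressed genes and the line is their median. The called genes are TIMP3, ADAMTS15, FOS, JUN and ATF3, all lower in BB608, with FOS and JUN drawn almost on top of each other.

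The labelled cell type was checked on markers. All 8 squamous epithelial markers, such as KRT5 and TP63, were tested and none was called by Cuffdiff's q, nor was any at an unadjusted p under 0.05. Their summed level was 3592 FPKM in BB608 and 3443 FPKM in DMSO. All 7 fibroblast markers were under 1 FPKM in both groups, with sums of 0.976 FPKM in BB608 and 1.01 FPKM in DMSO. Endothelial markers in the table summed to 4.16 FPKM in BB608 and 3.88 FPKM in DMSO, nearly all from CDH5, with VWF under 0.1 FPKM in both groups and KDR at 0 in both. Blood cell markers summed to 22.6 FPKM in BB608 and 25.2 FPKM in DMSO, mostly from CD68. Of the other markers of that list, CD14 had 2.24 FPKM in BB608 and 2.23 FPKM in DMSO, and PTPRC was under 0.01 FPKM in both groups.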

How the data were processed

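Ribosome-depleted stranded total RNA libraries were made for 3 BB608 and 3 DMSO samples, per the labels' protocols. TopHat2 2.0.11, Cufflinks 2.2.1, Cuffdiff and hg19 are named in the submitters' processing notes. Which gene annotation was used is not stated in them. The deposited table holds 1 row per coding sequence with FPKM pooled per group by the authors, the authors' log2 fold and test statistic (both read as a score), with the p-value and q-value of each test. Its log2 fold matched the log2 of its FPKM ratio to within 4.72e-05. Depth is unknown, because pooled FPKM carries no counts. The design text calls the replicates biological, without naming separate cultures.

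A coding sequence was called where the authors' q, adjusted over all tested rows, was under 0.05. The implied SE is the log2 fold divided by the authors' statistic and by 1.73, the median over 32689 rows of the normal quantile of p over the statistic. For the 17 tested sequences of the group this quotient ran from 1.07 to 1.81. Gene sums, medians and figures were computed with Python 3.11.15, pandas 2.3.3, numpy 2.4.6, scipy 1.17.1 and matplotlib 3.10.9. Recomputed adjustments were tested on simulated data. limma on values per library was foreseen and could not be run.

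The 9 genes and all lists were chosen with earlier results of these data known. Named genes were all 9, every called gene and the 3 most abundant genes of each list, and other metalloproteases at 1 FPKM or more. Of the genes this rule names, 1 is not reported here. Motifs were searched in RefSeq windows of GRCh38.p14.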

Additional observations from a re-analysis of the deposited data

How the results depend on the processing

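No paired analysis was possible because libraries were pooled within BB608 and within DMSO, and for the same reason no replicate could be left out. The count of called genes among the 9 was 0 under the deposited q, normal p-values, means of at least 1 or 5 FPKM, a fold bound and a q under 0.1. Over all coding sequences, 122 calls, 73 lower and 49 higher in BB608, became 40, 33 and 7 with a bound of 1 log2, by its own construction, and 38 were lower with a mean of at least 5 FPKM, where fewer sequences were tested. Of 42 alternatives over the 7 gene sums, 42 moved by less than the implied SE of the gene's most abundant sequence. That SE was 1.14 for PLAUR, 0.76 for PLAT and 0.49 for SERPINE2, so for these genes the comparison could hardly fail. The PLAUR log2 ratio ran from -0.47 with 1 FPKM added to both groups to -1.43 with the most abundant tested sequence. SERPINE2 went from -0.54 to -0.19 with its most abundant tested sequence. Some alternatives equal the main value by construction, as for MMP1 with its only sequence. The sign changed near 0 in 4 of the 42, for MMP1 under both scalings and for MMP14 with the most abundant or only the tested sequences. Scaling by the median ratio shifted every log2 ratio by 0.03. Called genes in the other lists numbered 3 at 1 FPKM or more and 5 with no filter on low values, which adds TIMP3 and ADAMTS15. Implied SEs read from each row's own p, an alternative chosen after seeing the data, stayed within 1.5 times the printed ones for the 7 most abundant sequences. Pooled values and unknown depth limit all 9 genes.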

Other observations

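Lysosomal proteases and their inhibitors, which also take part in matrix turnover, had 11 tested genes of 13 in the table, none called by Cuffdiff's q and 1 at an unadjusted p under 0.05. CTSD had a gene sum of 108 FPKM in BB608 and 100 FPKM in DMSO, the inhibitor gene CSTA 58.4 FPKM in BB608 and 65.7 FPKM in DMSO, and CTSB 47.2 FPKM in BB608 and 47.9 FPKM in DMSO. The list's median log2 ratio was -0.02. CSTB, named after its value was seen, is listed at 6.71 FPKM in BB608 and 0.000609 FPKM in DMSO in the authors' deposited table, with a Cuffdiff p of 0.281.

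SERPINB genes of the 18q21 cluster, where SERPINB2 lies, had 4 tested genes and none called by Cuffdiff's q, nor any at an unadjusted p under 0.05. SERPINB5, which encodes maspin, had a gene sum of 19.5 FPKM in BB608 and 24.7 FPKM in DMSO, SERPINB13 3.68 FPKM in BB608 and 3.57 FPKM in DMSO, and SERPINB8 2.96 FPKM in BB608 and 3.39 FPKM in DMSO, with a list median of -0.15. Matrix substrates had 9 tested genes, none called by Cuffdiff's q and 2 at an unadjusted p under 0.05, with a median of -0.04. The most abundant was COL17A1 at 95.8 FPKM in BB608 and 97.7 FPKM in DMSO, followed by LAMB3 at 61.8 FPKM in BB608 and 65.5 FPKM in DMSO.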
